A study of Homo sapiens with 31 samples.

Results

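The 6 libraries described here came from NALM-6 cells carrying the SFFV/sh-XIAP vector, 3 collected 10 days and 3 collected 13 days after transduction, out of 31 libraries in all. They were chosen by construct and day alone. The comparison addresses what changes between these days in the cells that the study calls strong XIAP knockdown (KD). NALM-6 is a human cell line of B-cell precursor acute lymphoblastic leukemia.

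Every library was made from sorted cells that carried a lentiviral vector with a short hairpin RNA (shRNA) placed in a microRNA-30 backbone downstream of the dsRED gene. In SFFV/sh-XIAP the hairpin targets XIAP and is driven by the spleen focus-forming virus (SFFV) promoter, which is strong in blood cells. The control SFFV/sh-CTRL (2 libraries at day 10 and 2 at day 13) carries a control hairpin, directed at eGFP per the study's methods, behind the same promoter, and EF1a/sh-CTRL (3 and 3) carries that hairpin behind the weaker EF1a promoter. EF1a/sh-XIAP (2 and 3), the moderate KD, entered the model for its estimate of spread. The sample labels describe cells followed in vitro whereas the design text of the series speaks of mouse bone marrow, and which applies to these libraries was not resolved. No source states that replicates came from separate transductions, so the spread between samples on which the p-values rest may be technical. A handling batch of each day cannot be told apart from the day itself.

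XIAP is a member of the inhibitor of apoptosis protein (IAP) family and binds and blocks caspases, the proteases that carry out apoptosis, among them the initiator CASP9. Its relatives cIAP1 and cIAP2, encoded by BIRC2 and BIRC3, act further upstream by attaching ubiquitin to components of the TNF receptor and RIPK1 complexes. Mitochondrial proteins such as DIABLO (Smac) and HTRA2 are released early in apoptosis and displace caspases from IAPs. Caspases are activated by cleavage of protein that is already made.

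Expression was measured as counts of unique molecular identifiers (UMIs), distinct molecules tagged at their 3' ends, by prime-seq. The 3 libraries of day 10 held 548598, 312852 and 1148669 UMIs and the 3 of day 13 held 1063954, 787007 and 630726, within a range of 312852 to 1153668 over all 31 libraries. Replicate 2 of day 10 was therefore the shallowest library of the series. It was also the least like the others, with a mean correlation of 0.955 with the other 5 libraries, where the highest was 0.974. Every pair of replicates within a day stood further apart than counting noise allows, with a chi-square of 1.20 to 2.46 per gene, where one library deposited again would give no such excess. Levels are given below as UMIs of a gene scaled to a common total in every library (CPM), which for 3' tags do not scale with gene length, in the order of replicates 1, 2 and 3.

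XIAP itself was counted thinly. Its gene lies at chrX:123859724-123913979 on the plus strand of GRCh38, and it gave 8, 2 and 9 UMIs at day 10 and 9, 5 and 6 at day 13. These correspond to 14.6, 6.39 and 7.84 CPM at day 10 and 8.46, 6.35 and 9.51 CPM at day 13. The days overlapped, with means of 9.60 ± 4.37 and 8.11 ± 1.61 CPM (SD, n = 3 each), a log2 fold change of −0.22 with a standard error of 0.49 and an edgeR adjusted p of 0.996. Pooled over libraries, the ratio of day 13 to day 10 was 0.853, with an exact 95% interval of 0.432 to 1.69 that covers counting error only. XIAP messenger RNA was not measurably lower than with the control hairpins either. Over both days SFFV/sh-XIAP cells gave 39 UMIs in 6 libraries, or 8.68 CPM, against 10.6 CPM in the 4 SFFV/sh-CTRL libraries, a ratio of 0.823 with an interval of 0.464 to 1.51. Against the 10 libraries of both control constructs the ratio was 0.785, with an interval of 0.510 to 1.20. These intervals include both a ratio of 1 and ratios as low as 0.464, so at this depth the counts show neither a loss of XIAP transcript nor its absence, and the cells are named below by their construct. The study graded its KD by XIAP protein on Western blots of NALM-6 cells, which RNA counts do not measure.

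BIRC2 stood at 38.3, 25.6 and 29.6 CPM at day 10 and at 23.5, 36.8 and 38.1 CPM at day 13. The days overlapped completely, with a log2 fold change of 0.02 (SE 0.26, edgeR adjusted p = 0.997), and its pooled ratio was 1.003 with an interval of 0.710 to 1.42. BIRC3 was barely detected, with 1 UMI at day 10 and 3 at day 13, and was not tested.

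Few genes were called between day 10 and day 13. Of 17683 genes tested with edgeR's quasi-likelihood test, 5 genes (0.0283%) passed the adjusted p of at most 0.25 that the study used as its threshold, all 5 of them lower at day 13, and no gene was called higher. This test took its spread from genes of like level together, so a gene's own spread between replicates does not enter its p-value. At an unadjusted level of 0.05, 704 genes passed, which is 3.98% of those tested. Over all genes the median log2 fold change was 0.01, with quartiles of −0.23 and 0.24, and 51.7% of genes lay above 0. Other tools changed the count. Limma-trend and DESeq2 called 0 genes, with 636 and 142 genes at an unadjusted 0.05, and limma-voom called 12, of which RPL28 alone was among the 5. The direction turned with the tool, since 9 of the 12 limma-voom calls were higher at day 13 and 3 lower. Below, a gene is said to be called where it passed edgeR's test, unless another tool is named.

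**Figure D1:**
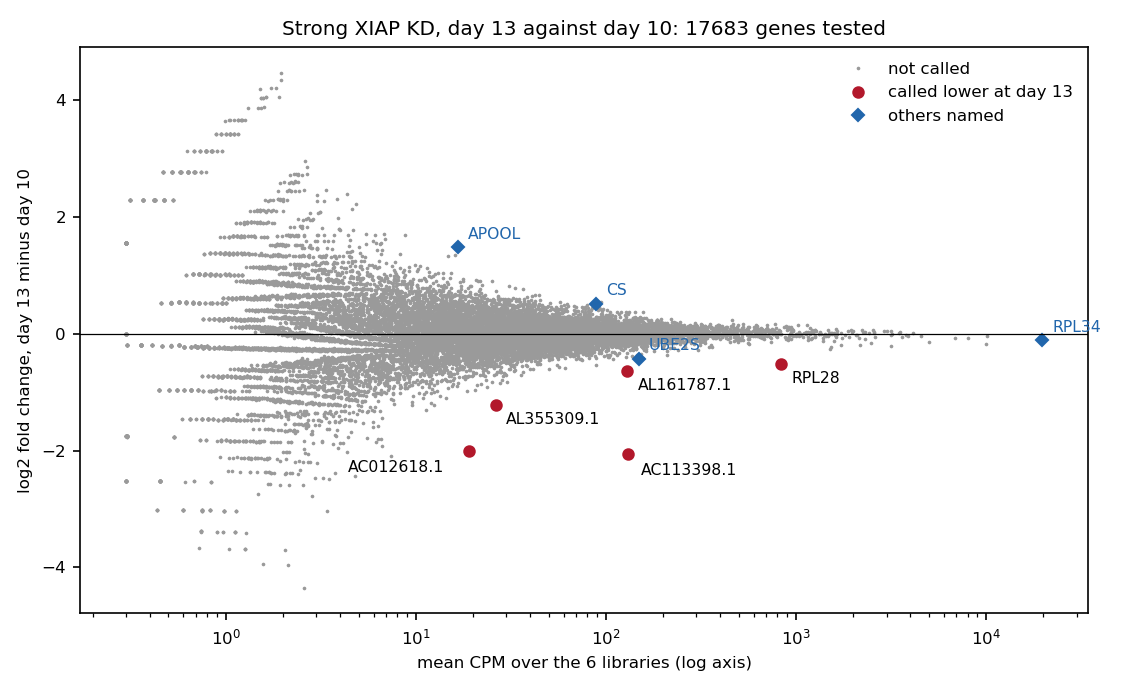
Log2 fold change from day 10 to day 13 in SFFV/sh-XIAP cells (vertical axis) against mean CPM over the 6 libraries (horizontal log axis), with 1 point for each of 17683 genes. The 5 genes called by edgeR are red and lie below 0, APOOL, CS, UBE2S and RPL34 are blue and were not called, and the spread narrows as the level rises.

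By the standard errors of the fit, precision depended on the level of a gene. For the 5469 genes with a mean under 5 CPM the median standard error of the log2 fold change was 1.05, so that 2 standard errors span a 4.28-fold change. For 6141 genes between 10 and 50 CPM this span was 1.51-fold, for 1859 genes between 100 and 1000 CPM it was 1.18-fold, and for the 100 genes above 1000 CPM it was 1.10-fold. These spans come from the shared spread, and a gene's own libraries could differ by more. Nor was a change of 2 standard errors enough for a call after adjustment over all genes. APOOL, with a log2 fold change of 1.48 (SE 0.39), was not called (edgeR adjusted p = 0.388). RPL34, a gene above 1000 CPM, had log2 fold changes between −0.27 and 0.16, depending on which library of day 10 was left out. Among the 4143 genes with a mean of at least 50 CPM, 95% of the log2 fold changes lay between −0.31 and 0.29.

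A simple count of genes whose 3 values at one day all exceeded the 3 at the other gave 934 genes higher at day 13 (5.28%) and 789 lower (4.46%), together 9.74% of those tested. For the 4143 genes of at least 50 CPM the shares were 5.12% and 4.68%. These shares are the background for every such gene named below, and an exact permutation test of 3 against 3 libraries cannot give a p under 0.1.

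The called genes formed 2 families of ribosomal protein sequences. RPL28 encodes a protein of the large ribosomal subunit, and its gene lies at chr19:55385345-55403250 on the plus strand. AC113398.1 (chr5:124808828-124809233, minus strand), AC012618.1 (chr19:12260126-12260537, plus strand) and AL355309.1 (chrX:137324972-137325049, minus strand) are processed pseudogenes, intronless copies of a messenger RNA, and their annotated transcripts match RPL28 at 91.8%, 92.8% and 97.4% of aligned positions. AL161787.1 (chr9:87525302-87525475, plus strand) is a processed pseudogene that matches RPS29, a protein of the small subunit, at 96.6%. The stretches below are 30 bases of single exons, taken from GENCODE transcripts on GRCh38, with capitals at each base that differs from the parent. Each window was chosen to have the fewest differences among those in which as many copies as possible differ. The number of differences in it is therefore no measure of identity, which is given above. RPL28 is read at chr19:55388284-55388313 (plus strand), AC113398.1 at chr5:124808845-124808874 (minus), AC012618.1 at chr19:12260489-12260518 (plus) and AL355309.1 at chrX:137324991-137325020 (minus).
RPL28: gcctgtgatggtgaagaggaagcggacccg
AC113398.1: gcctgtAatggtgaagaggaagcggacccg
AC012618.1: gcctgtgatggtgaagCggaagcggacccg
AL355309.1: gcctgtgatggtgaagaggaagcggacccA

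RPS29 at chr14:49586317-49586346 (minus strand) and AL161787.1 at chr9:87525302-87525331 (plus strand) share the start of the coding sequence with no difference at all in this window.
RPS29: atgggtcaccagcagctgtactggagccac
AL161787.1: atgggtcaccagcagctgtactggagccac

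How reads that fit several of these sequences were assigned is not given in the sources used here, so counts of a parent and of its copies are uncertain where they share bases.

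RPL28 was at 625, 553 and 1704 CPM at day 10 and at 682, 808 and 666 CPM at day 13. The days overlapped: replicate 3 of day 10 alone was high, and the other 2 libraries of day 10 lay below all 3 of day 13. The means were 961 ± 645 and 719 ± 77.8 CPM (SD, n = 3 each), the log2 fold change was −0.52 (SE 0.074) with an edgeR adjusted p of 3.34e-08, and an exact permutation test of the 6 values gave p = 1. AC113398.1 was at 60.2, 41.6 and 492 CPM at day 10 and at 40.4, 112 and 42.8 CPM at day 13, with a log2 fold change of −2.06 (SE 0.13, edgeR adjusted p = 6.77e-52). Replicate 3 of day 10 again carried the whole difference. AC012618.1 followed, at 14.6, 9.59 and 62.7 CPM and then 11.3, 11.4 and 4.76 CPM (log2 fold change −2.01, SE 0.32, edgeR adjusted p = 2.97e-06), and AL355309.1 at 14.6, 19.2 and 68.8 CPM and then 17.9, 28.0 and 9.51 CPM (−1.22, SE 0.27, edgeR adjusted p = 0.0179). In each of these 4 genes the high value belonged to the same library.

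Set against the other 30 libraries of the series, that library stood apart. Its RPL28 level of 1704 CPM was 2.56 times the median of the others, which ranged from 553 to 958 CPM, and its AC113398.1 level was 9.33 times their median of 52.7 CPM, in a range of 38.1 to 203 CPM. The highest of the others in both genes was replicate 3 of day 13 of EF1a/sh-CTRL. AC012618.1 and AL355309.1 were 4.35 and 3.66 times the respective medians. Without replicate 3 of day 10 the log2 fold changes became 0.27 for RPL28, 0.26 for AC113398.1, −0.40 for AC012618.1 and 0.21 for AL355309.1, and none of the 4 was called. RPL28 shares 3506 bases (chr19:55399745-55403250) with UBE2S on the opposite strand, and whether strand was used in counting is not given in the sources used here. UBE2S did not share the high value, with 174 CPM in that library against 171 and 169 CPM in the other 2 of day 10.

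AL161787.1 was high in a different library. It stood at 269.8, 102 and 109 CPM at day 10 and at 94.9, 103 and 99.9 CPM at day 13, so that replicate 1 of day 10 was the high value and the other 5 libraries lay close together. Its log2 fold change was −0.64 (SE 0.13) with an edgeR adjusted p of 0.00873, an exact permutation test gave p = 0.2, and without replicate 1 of day 10 the log2 fold change was −0.11 and not called. The other 30 libraries ranged from 66.8 to 131.6 CPM with a median of 100.5 CPM. Its parent RPS29 was highest in the same library, at 514, 300.5 and 320 CPM at day 10 and 338, 360 and 251 CPM at day 13, and was not called (log2 fold change −0.23, SE 0.090). Each of the 5 calls thus rested on 1 library of day 10, and none separated the days.

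**Figure D2:**
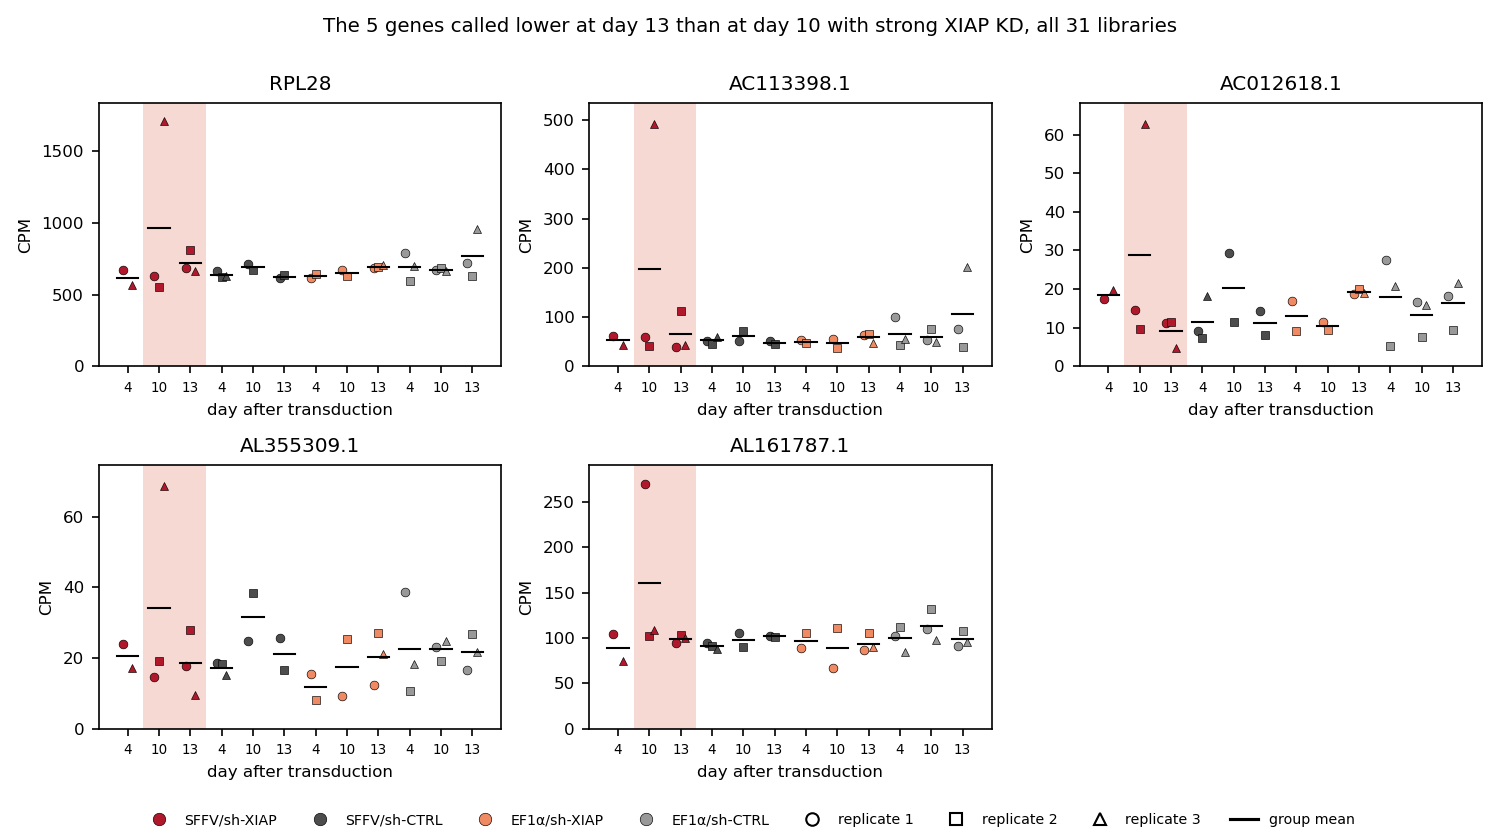
CPM of RPL28, AC113398.1, AC012618.1, AL355309.1 and AL161787.1 (vertical axes, from 0) in each of the 31 libraries, by construct (colour), day (horizontal axis) and replicate number (marker), with bars at the means. The shaded columns are days 10 and 13 of SFFV/sh-XIAP, where replicate 3 of day 10 stands above all others in the first 4 genes (1704 CPM for RPL28) and replicate 1 of day 10 in AL161787.1 (269.8 CPM).

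The shallow library bore on another ribosomal family. RPL34, also of the large subunit, has 17 listed copies in the table, and together the 18 sequences took 3.96%, 7.03% and 3.38% of all UMIs at day 10 and 4.09%, 3.41% and 5.38% at day 13. Replicate 2 of day 10, the shallowest of 31 libraries, had the second highest share of them all. RPL34 itself stood at 18082, 27336 and 16032 CPM at day 10 and at 18452, 16142 and 22098 CPM at day 13, with a log2 fold change of −0.11 (SE 0.056, edgeR adjusted p = 0.996). The copies RPL34P6 (chr1:200863808-200864152, plus strand) and AL136968.2 (chr6:5788346-5788699, minus strand) match it at 93.2% and 92.9% of aligned positions. Windows chosen in the same way are given for RPL34 at chr4:108622107-108622136 (plus strand), RPL34P6 at chr1:200863869-200863898 (plus) and AL136968.2 at chr6:5788603-5788632 (minus), with capitals at the differences from RPL34.
RPL34: cccgaacccctggtaatagaattgtttacc
RPL34P6: cGcgaacccctggtaatagaattgtttacc
AL136968.2: cccgaacccctggtaatGgaattgtttacc

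RPL34P6 was at 1299.7, 2752 and 999 CPM and then at 1266, 995 and 1872 CPM, and AL136968.2 at 2594, 5587 and 2149 CPM and then at 2670.2, 2104 and 3953 CPM. In all 3 genes replicate 2 of day 10 was the highest and replicate 3 of day 13 the next. Across the series the family tracked depth: it took 43962 to 79377 CPM in the 10 shallowest libraries (median 53912) and 33815 to 45511 CPM in the 10 deepest (median 39913).

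The direction of the family depended on which libraries were used. With all 6 libraries, 10 of its 15 tested members lay below 0 and 5 above, with a median log2 fold change of −0.11 and 0 called by edgeR. On the same libraries limma-voom called 2 members higher, RPL34P18 (0.38, adjusted p = 7.01e-22) and RPL34P27 (0.35, adjusted p = 0.0141). Without replicate 2 of day 10 all 15 lay above 0, with a median of 0.31, and 6 were called higher. Without replicate 3 of day 10 the median was −0.35 and 8 were called lower, and without replicate 3 of day 13 it was −0.31 with 8 called of 14 tested. No direction can be given for RPL34 and its copies between these days.

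**Figure D3:**
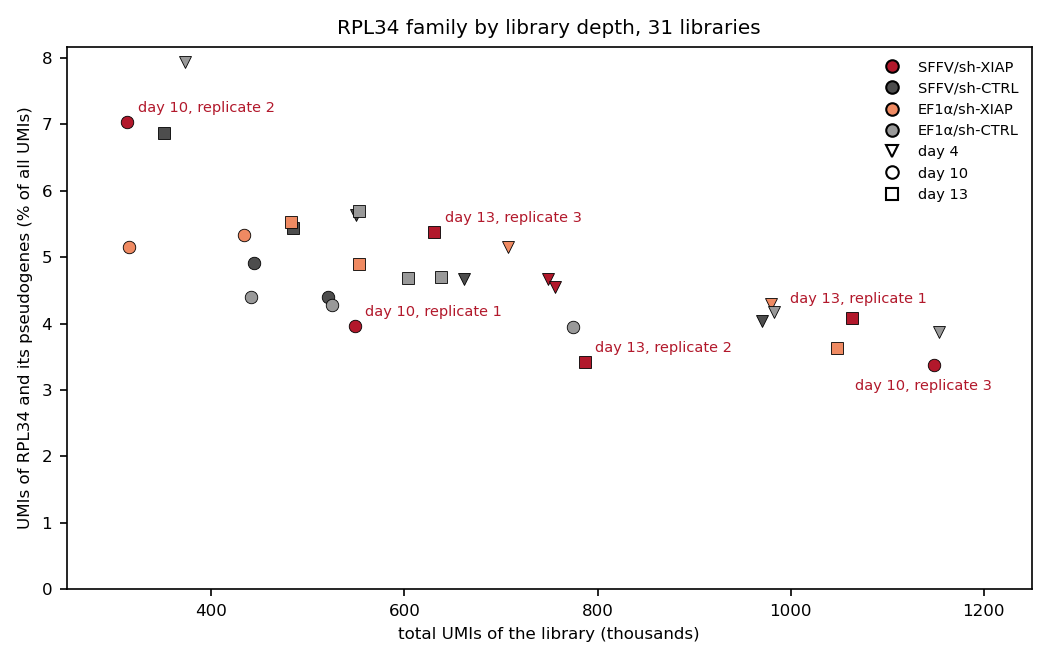
Share of UMIs in RPL34 and its listed copies (vertical axis, percent, from 0) against total UMIs (horizontal axis, in units of 1000) in the 31 libraries, with colours for constructs and markers for days. The 6 SFFV/sh-XIAP libraries of days 10 and 13 are labelled, from 3.38% in a library of 1148669 UMIs to 7.03% in the library of 312852 UMIs.

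Leaving out the shallow library raised the number of calls from 5 to 20, of which 12 were higher and 8 lower at day 13. The 5 original calls were among them, 14 of the 20 were pseudogenes, and 6 belonged to the RPL34 family. RPL37, again of the large subunit, was called higher with its copies RPL37P6 and RPL37P2, at 3276, 5162 and 3120.1 CPM at day 10 and 3448, 3158 and 4720.0 CPM at day 13 over all libraries. AL669983.1, a processed pseudogene 94.7% identical to RPL36, stood at 47.4, 118 and 74.9 CPM at day 10 and 108, 103 and 113 CPM at day 13, so that the shallow library was its highest. APOOL was the protein-coding gene outside these families that was called higher. MTRNR2L8, MTRNR2L10 and SCART1 were called lower, the former with a log2 fold change of −0.42 (edgeR adjusted p = 0.105).

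APOOL encodes a protein of the mitochondrial inner membrane that takes part in shaping cristae, and lies at chrX:85003826-85093316. It was counted at 7.29, 12.8 and 7.84 CPM at day 10 and at 22.6, 25.4 and 23.8 CPM at day 13. No value of day 13 overlapped day 10, and the mean went from 9.30 ± 3.03 to 23.9 ± 1.43 CPM (SD, n = 3 each). Its log2 fold change was 1.48 (SE 0.39) with an edgeR adjusted p of 0.388, which misses the threshold, against 0.231 by limma-voom and 0.105 by edgeR without the shallow library. In control cells with the same promoter APOOL was at 9.01 and 9.61 CPM at day 10 and at 25.6 and 20.6 CPM at day 13, a log2 fold change of 1.30. In EF1a/sh-CTRL it was at 12.9, 17.2 and 6.797 CPM and then at 18.2, 20.4 and 14.5 CPM, with an overlap between days and a log2 fold change of 0.52. The day change of SFFV/sh-XIAP differed by 0.18 from that of SFFV/sh-CTRL (edgeR adjusted p = 0.9998) and by 0.57 from that of both controls (edgeR adjusted p = 0.994), and neither difference was called.

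Among genes with a mean of at least 10 CPM, 4 more followed APOOL by smallest p in the higher direction, and none was called. AL669983.1, given above, had a log2 fold change of 0.54 and an edgeR adjusted p of 0.635. CS encodes citrate synthase, which opens the tricarboxylic acid cycle. It stood at 72.9, 54.3 and 83.6 CPM at day 10 and 109.97, 94.0 and 119 CPM at day 13, with no overlap between days (log2 fold change 0.52, SE 0.16, edgeR adjusted p = 0.961). In the other 25 libraries CS ranged from 51.8 to 104 CPM, so that 2 of the 3 libraries of day 13 lay above all of these. MTG2, a GTPase of mitochondrial ribosome assembly, was at 16.4, 6.39 and 5.22 CPM and then at 18.8, 16.5 and 33.3 CPM (1.35, SE 0.40, edgeR adjusted p = 0.792). FAM120B was at 10.9, 9.59 and 6.09 CPM and then at 17.9, 17.8 and 27.0 CPM (1.33, SE 0.40, edgeR adjusted p = 0.974). In both, all 3 values of day 13 lay above those of day 10, as they did in 5.28% of all genes.

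Some genes that were lower at day 13 without overlap had close copies that were lower too, and they were picked out after their values were seen. UBE2S encodes the ubiquitin-conjugating enzyme that extends chains on substrates of the anaphase-promoting complex in mitosis. It stood at 171, 169 and 174 CPM at day 10 and at 136, 122 and 120.5 CPM at day 13 (log2 fold change −0.42, SE 0.12, edgeR adjusted p = 0.688). The 3 values of day 10 lay above the other 25 libraries of the series, which ranged from 110.6 to 165 CPM, whereas those of day 13 lay within this range. Its processed pseudogene UBE2SP1, 98.8% identical, had 169.5, 176 and 191 CPM and then 146, 118 and 136 CPM (−0.42, SE 0.12, edgeR adjusted p = 0.635). Unlike those of UBE2S, its values of day 10 lay within the range of the other 25 libraries, 92.2 to 199.9 CPM. Neither gene was called.

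MT-ATP6, a subunit of ATP synthase encoded in the mitochondrial genome, was at 1903, 1956 and 1728 CPM at day 10 and at 1659, 1504 and 1671 CPM at day 13 (log2 fold change −0.20, SE 0.069, edgeR adjusted p = 0.996). MTATP6P1, a copy of it on chromosome 1 that is 98.5% identical, was at 1715, 1771 and 1500.0 CPM and then at 1367, 1360 and 1411 CPM (−0.25, SE 0.070, edgeR adjusted p = 0.581, limma-voom 0.103). The days did not overlap in either, and replicates 1 and 2 of day 10 lay above the range of the other 25 libraries, 1234 to 1760.3 CPM for MT-ATP6.

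**Figure D4:**
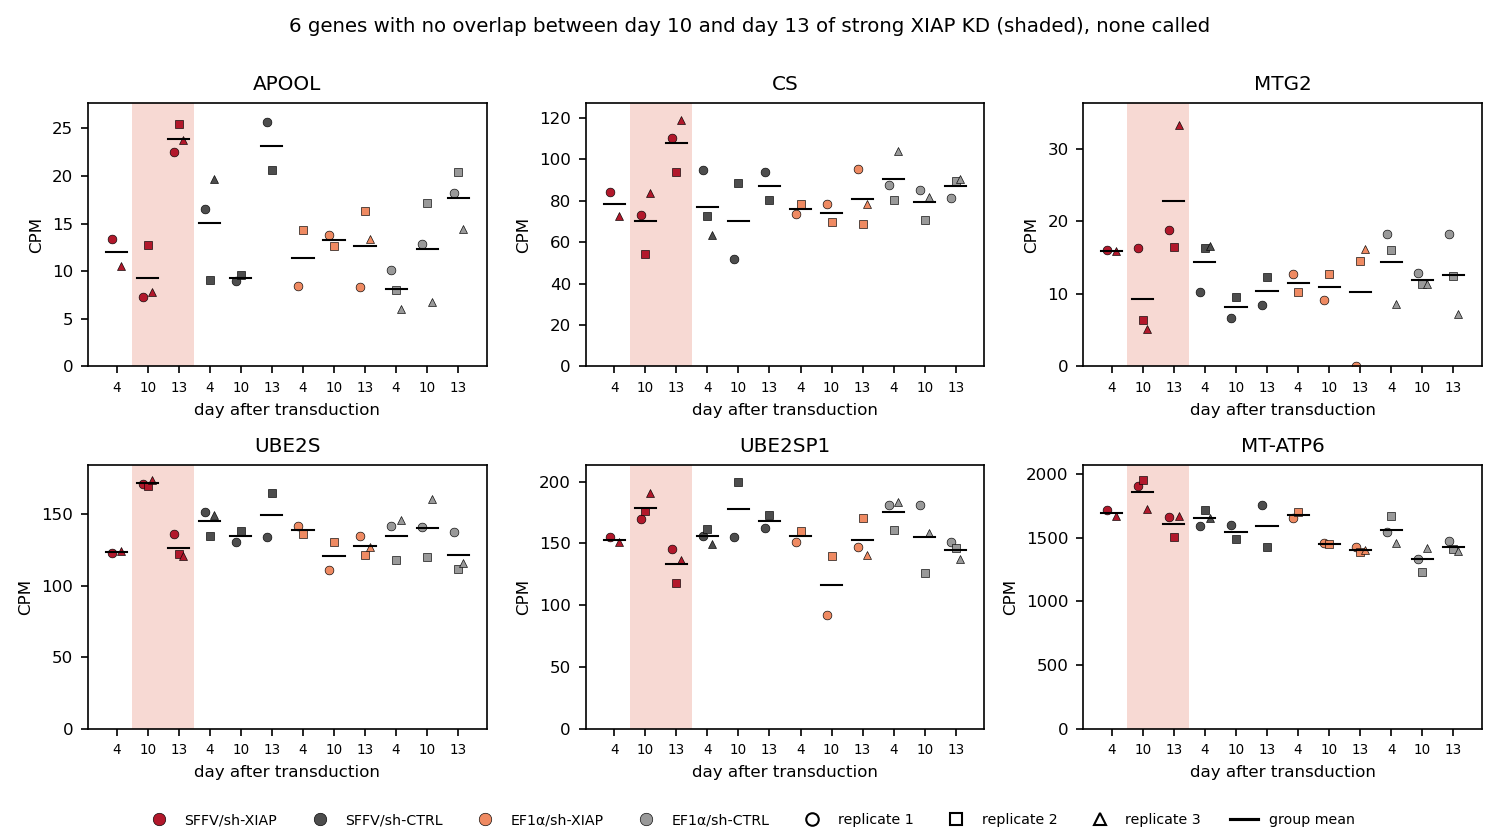
CPM of APOOL, CS, MTG2, UBE2S, UBE2SP1 and MT-ATP6 (vertical axes, from 0) in each of the 31 libraries, by construct (colour), day (horizontal axis) and replicate number (marker), with bars at the means. In the shaded columns, days 10 and 13 of SFFV/sh-XIAP, the days do not overlap for any of the 6, none of which was called by edgeR (limma-voom called APOOL), and APOOL is also higher at day 13 than at day 10 in SFFV/sh-CTRL.

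The pathways that bear on XIAP and on leukemia cells were followed through 31 gene lists with 865 different genes, of which 845 were tested. RPL28 was the only one called by edgeR, and limma-voom also called others, among them RPL29, RPS18 and MT-CO2, each higher by 0.05 to 0.16 on the log2 scale. Of the 845, 445 lay above 0. Without overlap, 44 (5.21%) were higher and 41 (4.85%) lower at day 13, against 5.28% and 4.46% of all genes tested. The latter shares are also the background for the counts in each list below, including those on 1 side only, and no list was tested. In 30 of the 31 lists the median log2 fold change lay between −0.1 and 0.1. The exception was the IAP list, with a median of −0.22 over 9 tested genes. It ranged from −0.30 to 0.08 when the scaling, the filter or 1 library was changed, so its sign was not stable.

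**Figure D5:**
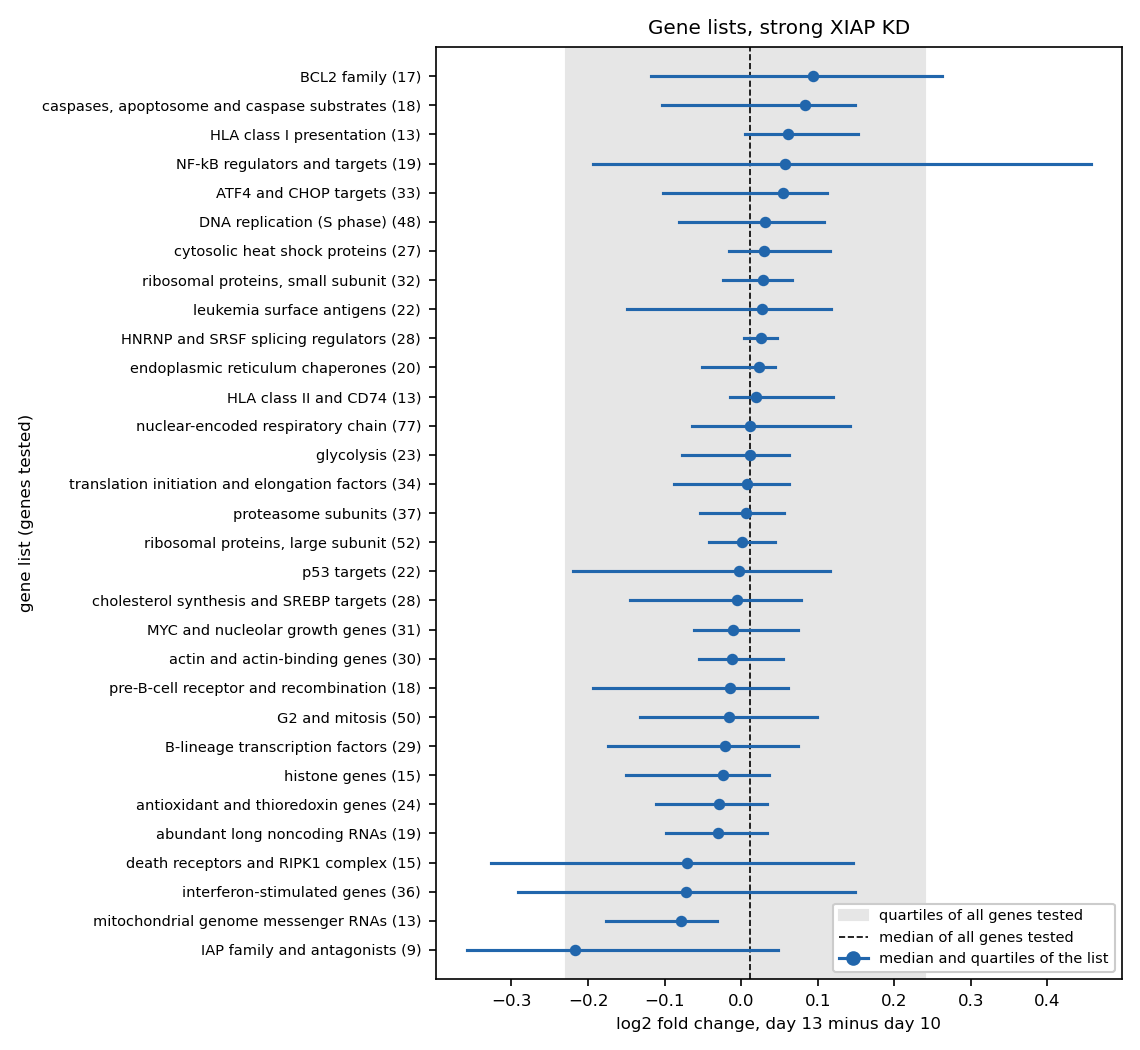
Median (point) and quartiles (line) of the log2 fold change from day 10 to day 13 in each of 31 gene lists, with the number of genes tested beside each name. The grey band marks the quartiles of all 17683 genes tested, −0.23 to 0.24, and the medians of 30 lists lie between −0.1 and 0.1.

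Among the IAPs, BIRC5 (survivin), which works mainly in chromosome segregation, stood at 149, 121 and 192 CPM at day 10 and 193, 170.3 and 168 CPM at day 13. BIRC6, a giant IAP that also conjugates ubiquitin, stood at 89.3, 63.9 and 80.1 CPM and then 87.4, 83.9 and 71.3 CPM. Both overlapped between days. Of the antagonists, HTRA2, a mitochondrial serine protease, was at 63.8, 51.1 and 74.0 CPM and then at 55.5, 52.1 and 46.0 CPM (log2 fold change −0.36, SE 0.19), whereas DIABLO reached at most 3.65 CPM in any of the 6 libraries. XAF1, which antagonizes XIAP, was also near the limit of counting, between 0 and 7.84 CPM. No member of the list separated the days.

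Of 18 tested genes of caspases, the apoptosome and caspase substrates, 11 lay above 0 with a median of 0.08, and none was called. CASP9 was counted thinly, between 3.20 and 13.2 CPM. CASP1, an inflammatory caspase, was higher without overlap, at 14.6, 19.2 and 14.8 CPM and then at 23.5, 24.1 and 26.9 CPM. PARP1, a DNA repair enzyme cleaved by caspases, was lower without overlap, at 328, 323 and 388 CPM and then at 322, 320.2 and 308 CPM, the nearest values lying at 323 and 322 CPM. CYCS, the cytochrome c that starts apoptosome assembly, overlapped at 208, 144 and 198 CPM and 219.9, 211 and 192 CPM.

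In the BCL2 family, which controls the release of cytochrome c, 9 of 17 genes lay above 0 and the median was 0.09. MCL1, a protector against apoptosis, stood at 139, 128 and 143 CPM at day 10 and at 171, 179 and 151 CPM at day 13, without overlap (log2 fold change 0.29, SE 0.12, edgeR adjusted p = 0.996). BAK1, a pore-forming effector, was at 27.3, 25.6 and 27.9 CPM and then at 32.9, 39.4 and 34.9 CPM, and BBC3 (PUMA), an activator of these pores, at 20.1, 19.2 and 27.0 CPM and then at 16.9, 16.5 and 15.9 CPM. These 3 did not overlap between days, and none was called. PMAIP1 (NOXA), the most counted member, overlapped at 166, 185 and 174 CPM and 179.5, 147 and 162 CPM.

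Death receptors and the RIPK1 complex, the route on which cIAPs act, gave 15 tested genes with a median of −0.07, and none separated the days. RIPK1 stood at 34.6, 9.59 and 18.3 CPM at day 10 and at 24.4, 26.7 and 14.3 CPM at day 13, and its adaptors FADD and TRADD overlapped as widely. Of 19 NF-kB regulators and targets, NFKB1 and IKBKG were higher and NFKB2 lower without overlap. NFKB1 was at 32.8, 25.6 and 45.3 CPM and then at 46.1, 54.6 and 65.0 CPM (log2 fold change 0.49, SE 0.22), and NFKB2 at 38.3, 38.4 and 38.3 CPM and then at 24.4, 35.6 and 25.4 CPM (−0.42, SE 0.25). TNFAIP3, an inducible brake on the pathway, overlapped, between 113 and 146 CPM.

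For p53 targets the 22 tested genes were evenly divided, 11 above and 11 below 0. DDB2, a sensor of damaged DNA, stood at 120.3, 131 and 125 CPM at day 10 and at 168, 146 and 168 CPM at day 13, without overlap (log2 fold change 0.38, SE 0.12, edgeR adjusted p = 0.996). The best-known target CDKN1A, an inhibitor of the cell cycle, overlapped at 381, 329 and 378 CPM and 351, 366 and 349 CPM. Of the 33 tested targets of ATF4 and CHOP, 22 lay above 0 with a median of 0.06. PSPH, SLC7A11 and CEBPB were higher without overlap, whereas DDIT3, which encodes CHOP, was lower, at 43.7, 44.7 and 50.5 CPM and then at 39.5, 41.9 and 38.1 CPM.

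The cell cycle showed 30 of 48 S-phase genes above 0, with a median of 0.03, and 20 of 50 genes of G2 and mitosis, with a median of −0.02. TOP2A, KIF11, NCAPG and UBE2S, all of mitosis, were lower without overlap and no gene of this list was higher without overlap. TOP2A, which untangles chromosomes, was at 343, 352 and 313 CPM at day 10 and at 282, 313 and 268 CPM at day 13 (log2 fold change −0.19, SE 0.093). The most counted genes of both lists, TYMS, MCM3, TUBA1B and HMGB2, overlapped, with log2 fold changes between −0.02 and 0.05.

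Of 27 cytosolic and mitochondrial heat shock genes, 18 lay above 0 with a median of 0.03. Without overlap, 5 were higher and 0 lower, beside 5.28% and 4.46% of all genes tested. The 5 were the mitochondrial chaperonin pair HSPD1 and HSPE1, the co-chaperone DNAJA1, and CCT2 and TCP1, subunits of the chaperonin that folds actin and tubulin. HSPE1 stood at 200.5, 166 and 226 CPM at day 10 and at 255, 235 and 239 CPM at day 13 (log2 fold change 0.25, SE 0.10). HSPD1 stood at 855, 834 and 860.1 CPM and then at 923, 882 and 940.2 CPM (0.11, SE 0.075). The most counted members, HSPA8 and HSP90AA1, overlapped, and none of the 27 was called.

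Of the 77 tested nuclear genes for subunits of the respiratory chain, 43 lay above 0 with a median of 0.01, and 7 were higher and 4 lower without overlap. NDUFA5 of complex I stood at 126, 147 and 139 CPM at day 10 and at 165, 174 and 192 CPM at day 13 (log2 fold change 0.37, SE 0.12), and UQCRFS1, the iron-sulfur protein of complex III, at 85.7, 73.5 and 74.9 CPM and then at 96.8, 116 and 106 CPM (0.45, SE 0.16). By contrast, of 13 messenger RNAs of the mitochondrial genome, 12 lay below 0, with a median of −0.08 that stayed between −0.15 and −0.07 under the scalings, filters and left-out libraries tried. MT-ATP6 was the member that separated the days, and the most counted, MT-CO2, overlapped at 6292, 8736 and 6269 CPM and 6656, 6032 and 7404 CPM. As a share of all UMIs these 13 made up 1.62%, 1.85% and 1.60% at day 10 and 1.60%, 1.52% and 1.67% at day 13, with the shallow library highest (exact permutation p = 0.5, two-sided).

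Leukemia surface antigens gave 22 tested genes with a median of 0.03. CD22 and CD81 of the B-cell surface, the homing receptor CXCR4 and the integrin chain ITGA4 were lower without overlap, and none of the list was higher without overlap. CXCR4 stood at 306, 329 and 299 CPM at day 10 and at 291, 267 and 260.0 CPM at day 13 (log2 fold change −0.15, SE 0.094), and CD81 at 492, 486 and 450.1 CPM and then at 419, 427 and 434 CPM (−0.14, SE 0.086). MME (CD10), the most counted antigen, overlapped between 588 and 637 CPM. Among 29 B-lineage transcription factors IKZF2, TCF4 and FOXP1 were higher without overlap, TCF4 at 401, 390.0 and 402 CPM and then at 408, 446 and 423 CPM, and IRF8 was lower. Of 18 genes of the pre-B-cell receptor and recombination, 0 were higher and 2 lower without overlap, and IGLL1, the surrogate light chain, overlapped between 1374 and 1538 CPM.

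Antioxidant genes numbered 24, of which GCLM was higher and PRDX3, NQO1, CAT and FTH1 lower without overlap. FTH1, the ferritin heavy chain that stores iron, stood at 133, 176 and 134 CPM at day 10 and at 95.9, 128 and 96.7 CPM at day 13 (log2 fold change −0.40, SE 0.13, edgeR adjusted p = 0.996). FTL, the ferritin light chain, overlapped at 602, 537 and 639.9 CPM and 685, 633 and 614 CPM. Interferon-stimulated genes, which can respond to lentiviral transduction, had a median of −0.07 over 36 tested genes, 20 of them below 0, and ISG20 alone was lower without overlap. IFITM2, the most counted of these, was at 146, 159.8 and 114 CPM and then at 105, 126 and 88.8 CPM, with an overlap between days.

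The remaining lists also gave medians near 0. Large-subunit ribosomal proteins had a median of 0.00 over 52 genes and small-subunit proteins 0.03 over 32. Proteasome subunits (37 genes), glycolysis (23), translation factors (34), actin-binding genes (30), cholesterol synthesis (28) and the nucleolar growth genes around MYC (31) had medians between −0.01 and 0.01. Among the translation factors 3 were higher and 4 lower without overlap, and the 13 genes of HLA class I presentation had a median of 0.06. GAPDH overlapped at 2641, 2196 and 2599.5 CPM and 2542, 2739.5 and 2497 CPM, and ACTB at 1466, 1409.6 and 1590.5 CPM and 1481, 1499 and 1416 CPM.

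Whether the day change differed from that of control cells was tested in the same fit. Against SFFV/sh-CTRL the change differed for 10 of 17683 genes (0.0566%), and against both control constructs for 14 (0.0792%), and in all of these it was lower with SFFV/sh-XIAP. Of the 10, 8 were RPL34 and its copies, and 8 of the 14 were too. RPL34P6 had the smallest p against SFFV/sh-CTRL, with a difference of −0.88 on the log2 scale (edgeR adjusted p = 9.57e-11), followed by RPL34P18 (−0.67, edgeR adjusted p = 5.06e-09) and AL136968.2 (−0.73, edgeR adjusted p = 1.13e-08). RPL34 itself differed by −0.45 (edgeR adjusted p = 0.000675), being at 20786 and 19107 CPM at day 10 and at 26655 and 22601 CPM at day 13 in SFFV/sh-CTRL. The control group included a shallow library as well, replicate 1 of day 13 with 351081 UMIs, the third shallowest, and it was the higher of its pair. Without replicate 2 of day 10 of SFFV/sh-XIAP the difference for RPL34 was −0.17 (edgeR adjusted p = 0.974), and 2 genes were called against either control. Limma-voom, limma-trend and DESeq2 called 0 genes in both tests. Against SFFV/sh-CTRL they gave 870, 1116 and 224 genes at an unadjusted 0.05, and against both controls 917, 862 and 191, where edgeR gave 886 and 867.

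Outside this family the calls against SFFV/sh-CTRL were AC113398.1 (−1.72, edgeR adjusted p = 0.000908), whose day 10 value is that of 1 library as shown above, and MRPS10 (−1.53, edgeR adjusted p = 0.195). MRPS10, a protein of the mitochondrial ribosome, was at 58.3, 35.2 and 56.6 CPM and then at 42.3, 53.4 and 34.9 CPM in SFFV/sh-XIAP, and at 33.8 and 23.1 CPM and then at 59.8 and 70.1 CPM in SFFV/sh-CTRL. The days overlapped in the former and not in the latter, so the larger part of the difference lay in the control cells. Against both controls AC113398.1 (−2.30, edgeR adjusted p = 2.17e-19), RPL28 (−0.57, edgeR adjusted p = 1.84e-05), CAPZB (−0.70, edgeR adjusted p = 0.0235) and MTATP6P1 (−0.37, edgeR adjusted p = 0.0713) were called, as were RPS18, of the small subunit, and AC073861.1. CAPZB, which caps actin filaments, was at 149, 192 and 173 CPM and then at 117, 147 and 187 CPM in SFFV/sh-XIAP, at 158 and 135 CPM and then at 216 and 182 CPM in SFFV/sh-CTRL, and at 129, 129.7 and 129 CPM and then at 181, 159.9 and 204 CPM in EF1a/sh-CTRL. CAPZB was thus higher at day 13 in every control library and overlapped in SFFV/sh-XIAP. No gene had a significantly higher day change in SFFV/sh-XIAP: the nearest was AL592293.1, a pseudogene at 0 CPM in all 3 libraries of day 10 and at 4.70, 2.54 and 3.17 CPM at day 13 (edgeR adjusted p = 0.272 against both controls). IER2, an immediate early gene, was the nearest against SFFV/sh-CTRL by p, with a difference of 1.48 (edgeR adjusted p = 0.466), at 41.9, 16.0 and 38.3 CPM and then 55.5, 49.6 and 46.0 CPM.

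The same edgeR test between days gave 21 genes (0.119%) in SFFV/sh-CTRL, 23 (0.13%) in EF1a/sh-CTRL and 9 (0.0509%) in EF1a/sh-XIAP. Each rests on its own number of libraries, beside the 5 genes in SFFV/sh-XIAP. RPL34 and its copies made up 8 of the 21, 7 of the 23 and 0 of the 9. In the same order limma-voom called 0, 1 and 0 genes, DESeq2 0 in each and limma-trend 18, 0 and 33. RPL34 had a log2 fold change of 0.34 in SFFV/sh-CTRL (edgeR adjusted p = 0.0015) and −0.11, not called, in SFFV/sh-XIAP. Whether the counts of calls differ between constructs was not tested.

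The markers of the labelled cell type were present. The 15 markers of B-cell precursors, CD79A, PAX5, RAG1 and DNTT among them, summed to 5715 to 6205 CPM in the 6 libraries, and all were detected. Markers of T cells summed to 36.8 to 57.1 CPM with CD4 at 0. Myeloid markers summed to 8.89 to 41.6 CPM with ELANE, S100A9 and FCN1 at 0. The myeloid sum of 41.6 CPM was in the shallow library and was the highest of all 31. Erythroid markers summed to 3.17 to 5.64 CPM with HBD and CA1 among those at 0. The 7 markers of stromal or epithelial cells could come from packaging cells. They summed to 7.29, 16.0 and 10.4 CPM at day 10 and to 17.9, 21.6 and 17.4 CPM at day 13, without overlap. All 3 tested markers lay above 0, with a median log2 fold change of 0.83, and none was called. COL1A1 and CDH1 were higher at day 13 without overlap, and COL1A2, THY1 and KRT18 were at 0. The sums of all libraries ranged from 7.29 CPM, which is replicate 1 of day 10 here, to 28.6 CPM. In bulk samples, fewer cells of a type and less RNA per cell cannot be told apart.

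Signs of library quality did not separate the days. Ribosomal protein genes took 12.7%, 14.2% and 12.6% of UMIs at day 10 and 12.8%, 12.4% and 13.5% at day 13 (exact permutation p = 0.7), and pseudogenes 17.6%, 20.2% and 17.1% and then 17.9%, 17.3% and 19.0% (exact p = 0.9). The 10 most counted genes took 7.005%, 10.5% and 6.40% and then 7.09%, 6.43% and 8.72% (exact p = 0.9). At a common depth of 312852 UMIs the libraries showed 15320.0, 15077 and 15370.0 genes and then 15204, 15283 and 15160.0 genes (exact p = 0.7). In each of these shares the shallow library was the highest of the 6 and in genes detected the lowest, with replicate 3 of day 13 next in each.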

How the data were processed

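As deposited by the authors, the data are raw UMI counts without normalization for 30667 Ensembl gene identifiers in 31 prime-seq libraries. The submitters' processing notes name STAR 2.6.0a and human as well as mouse genome builds. The counting tool, its annotation, and how it treated strand and reads that fit several places were not given in the sources used here. Of the identifiers, 29928 are in GENCODE 29 (GRCh38), from which names, positions and sequences were taken.

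Libraries were assigned to construct, day and replicate by their labels, and none of the 31 was left out. The study excluded 5 samples as outliers, and whether those are among these 31 is not stated. Some replicate numbers of a construct and day are absent from the labels of the 31. Total counts of the 6 libraries were 312852 to 1148669 UMIs, and intervals cover counting error only. The 21 libraries of days 10 and 13 were fitted with 1 mean for each of 8 groups in edgeR 4.0.16 (R 4.3.3; TMM scaling; glmQLFit and glmQLFTest with installed defaults). Tests covered the 17683 genes that passed 1 CPM in 1/3 or more of these libraries, at a Benjamini-Hochberg adjusted p of at most 0.25, and standard errors were derived from the F statistic. The prior degrees of freedom were infinite, so tests and standard errors used a spread shared by genes of like level. The study used limma and does not state the variant. The count model was the main test here because in an earlier analysis of these data limma-voom gave very small p-values for highly counted genes whose samples overlapped. The count model was not free of this, since the 5 genes it called between days overlapped too, with edgeR adjusted p down to 6.77e-52. Limma 3.58.1 (voom and trend) and DESeq2 1.42.0 were alternatives, as were other scalings, filters, thresholds, sample sets, thinned counts, a replicate block and each library left out. EdgeR's robust fit, its adjusted deviances and protein-coding genes alone were added after the data were seen. The fit was checked on simulated counts.

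Genes were named by rule: XIAP, BIRC2 and BIRC3, called genes, the 5 of smallest p in a direction with fewer than 5 calls and a mean of at least 10 CPM, called list members, the 2 most counted members of a list, and the 3 of smallest p in each direction of each test of a difference. List members given for their lack of overlap, or as known parts of a pathway, and genes said to be so were named after their values were seen. The libraries and lists were chosen with earlier results of these data known, and lists were described by counts and medians without a test. Some genes that the rule or the lists would name are not reported here.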

Additional observations from a re-analysis of the deposited data

Results flagged for a closer look

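By edgeR's test of the difference itself, 10 genes differed in their change from day 10 to day 13 when SFFV/sh-XIAP was set against SFFV/sh-CTRL, and 14 when it was set against both control constructs. Against SFFV/sh-CTRL the genes of smallest p were RPL34P6 (−0.88 on the log2 scale), RPL34P18 (−0.67) and AL136968.2 (−0.73), all copies of RPL34. Against both controls they were AC113398.1 (−2.30), RPL34P6 (−0.73) and AL136968.2 (−0.68). Beside these stand the depths: the shallowest library of the series, with 312852 UMIs, was at day 10 of SFFV/sh-XIAP. The third shallowest, with 351081 UMIs, was at day 13 of SFFV/sh-CTRL. Both had a high share of RPL34 sequences, 7.03% and 6.88% of UMIs. The second shallowest, replicate 2 of day 10 of EF1a/sh-XIAP with 315055 UMIs, had a lower share of 5.16%. Without the library of 312852 UMIs, 2 genes were called in either test. AC113398.1 was high in 1 library of day 10, and without it the difference from both controls was 0.021. These values stand beside the differences, and their part in them was not tested further.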

How the results depend on the processing

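The 5 calls between days became 12 with limma-voom, 0 with limma-trend and with DESeq2, 2 with filterByExpr, with counts thinned to the smallest library and with edgeR's adjusted deviances, 3 with edgeR's robust fit, and 1 with protein-coding genes only. Leaving out 1 library gave 5 to 20 calls, 20 without replicate 2 and 11 without replicate 3 of day 10. The 10 calls of a difference from SFFV/sh-CTRL became 0 with limma-voom, limma-trend, DESeq2, filterByExpr, the robust fit and adjusted deviances, 2 with all 31 samples and 6 with protein-coding genes only, and 2 to 22 with 1 library left out. The 14 calls of a difference from both controls became 0 with limma-voom, limma-trend, DESeq2 and filterByExpr, 2 with the robust fit, 1 with adjusted deviances and 7 with protein-coding genes only, and 2 to 24 with 1 library left out. The causes of these shifts were not tested, beyond the fewer genes or libraries that a setting leaves.

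A replicate block, with construct and replicate number as a term, gave 3 calls between days. Libraries of the same number correlated at 0.03, −0.11 and −0.05 in their deviations over 4143 genes, and those of different numbers at −0.07 to 0.09. As deviations from means of 3 libraries, these values cannot tell whether a shared number marks the same culture.

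Signs turned for BIRC2 with limma-voom (−0.013) and, with 1 library left out, for BIRC2 (log2 fold changes of −0.10 to 0.26), XIAP (−0.51 to 0.10), RPL28 (−0.77 to 0.27), AC113398.1 (−2.67 to 0.26, and −2.91 to 0.021 for its difference from both controls) and AL355309.1 (−1.58 to 0.21). The last 3 turned without replicate 3 of day 10, and XIAP without replicate 1 of day 10. Of the other values of named genes, 452 kept their direction and side of the threshold, 74 lost the call and 12 gained it. Of 310 list medians, 17 moved by more than the spread. With 1 library left out, the day 13 minus day 10 difference ranged from −0.53 to 0.27 percentage points for ribosomal protein genes, −0.81 to 0.75 for pseudogenes, −1.32 to 0.71 for the 10 most counted genes, −0.14 to −0.014 for mitochondrial messenger RNAs and −129 to 17.2 for genes detected. Genes detected differed by 1013.7 in the other direction, higher at day 13, at the depth as deposited. Depth limits the genes under 5 CPM most.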

Other observations

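The table also counts nuclear copies of the mitochondrial 16S ribosomal RNA. MTRNR2L8 stood at 233, 205 and 268 CPM at day 10 and at 202, 191 and 168 CPM at day 13, without overlap (log2 fold change −0.36, SE 0.10, edgeR adjusted p = 0.635). MTRNR2L10 stood at 106, 83.1 and 123 CPM and then at 94.0, 68.6 and 57.1 CPM (−0.53, SE 0.15, edgeR adjusted p = 0.635), and MTRNR2L6 at 72.9, 57.5 and 87.9 CPM and then at 63.9, 45.7 and 39.6 CPM (−0.58, SE 0.18, edgeR adjusted p = 0.996). The parent MT-RNR2 was at 2432, 2196 and 2480.3 CPM and then at 2311, 2235 and 2136 CPM (−0.09, SE 0.067, edgeR adjusted p = 0.996). In all 4 sequences replicate 3 was the highest library of day 10 and the lowest of day 13, and the log2 fold changes of the copies lay further from 0 than that of their parent. These genes were named after their values were seen, and none was called by edgeR with all 6 libraries, whereas limma-voom called MT-RNR2 (adjusted p = 0.00942). SCART1 was at 1.82, 3.20 and 13.1 CPM at day 10 and at 0.94, 0 and 1.59 CPM at day 13 (−3.04, SE 0.84, edgeR adjusted p = 0.581), without overlap. It was near the limit of counting, so its lack of overlap carries little weight. Replicate 3 of day 10, the library that was high in RPL28, alone lay above 3.20 CPM.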
